A study of Mus musculus with 16 samples.

Results

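The adenylyl cyclase genes Adcy1 to Adcy9 encode the membrane-bound enzymes on which forskolin acts, and forskolin was 1 of 3 small molecules in the medium that defined the MPC cultures of this study. These 9 genes were taken by name from the 35613 genes in the files, with no measured value as a criterion, and all 9 were found. The choice was made with earlier results of these data known. RNA levels were compared across 5 groups of cultured mouse muscle cells.

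Adenylyl cyclases convert ATP into cyclic AMP (cAMP), which acts through protein kinase A (PKA), Epac and cyclic nucleotide-gated channels and is broken down by phosphodiesterases. Receptors coupled to the stimulatory G protein Gs switch the enzymes on. Family members differ in their other inputs: the products of Adcy1, Adcy3 and Adcy8 respond to calcium and calmodulin, those of Adcy2, Adcy4 and Adcy7 are conditionally stimulated by G protein beta-gamma subunits, and those of Adcy5 and Adcy6 are inhibited by Gi and by calcium. The Adcy9 product responds weakly, if at all, to forskolin. In skeletal muscle, cAMP signalling is known for its part in growth, metabolism and the behaviour of muscle stem cells.

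All cells came from skeletal muscle and had the genotype Pax7-nGFP, in which nuclear GFP reports on Pax7, a transcription factor gene used to mark muscle stem cells. Each group had 3 libraries that the labels call biological replicates, from parental lines of 16-week-old males. Bulk myoblasts were unsorted cells of growth medium at passage 3, GFP+ myoblasts were sorted for the reporter at passage 5 to 6, and differentiated myoblasts were unsorted cells at passage 4 to 5 after 3 days in differentiation medium. Bulk MPC and GFP+ MPC were the unsorted and sorted forms of cultures grown as myoblasts for 2 to 3 passages and then for 5 to 6 passages in MPC medium, which held 5 µM forskolin, 5 µM RepSox, which blocks TGF-beta type I receptor kinase activity, and CHIR9901 (spelled so in the labels) at 3 µM. The labels do not spell out MPC. An additional unreplicated library, high-passage GFP+ MPC, came from a 39-week-old female: GFP- sorted myoblasts at passage 8 were kept for 2 passages in MPC medium and then sorted for GFP. The base medium and serum changed together with the small molecules, and no culture received forskolin alone, so a difference between MPC and myoblasts cannot be assigned to any of these. Sorted RNA was prepared with another kit than unsorted RNA, so sorting, kit and, in myoblasts, passage cannot be told apart.

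Total estimated counts were 19300307 to 29127963 per library. Pax7 was at 528 to 1005 CPM (counts scaled to library size) in bulk myoblasts, GFP+ myoblasts and GFP+ MPC, and at 25.4 to 137 CPM in differentiated myoblasts and bulk MPC. The summed level of 7 markers of differentiating muscle (Myog, Mymk, Myh3, Myh8, Ckm, Acta1 and Tnnt3, none at 0) was 292 to 451 CPM in GFP+ myoblasts and 663 to 1430 in GFP+ MPC, against 13545 to 20078 in bulk myoblasts, 49725 to 56170 in differentiated myoblasts and 49576 to 68517 in bulk MPC. Summed markers of endothelium, macrophages and adipocytes stayed at or below 14.5 CPM in every library, with Kdr at 0 in differentiated myoblasts and bulk MPC, Adgre1 at 0 in all sorted groups and bulk MPC, and Adipoq or Cidec at 0 in each group. Bulk MPC replicate 2 stood apart, with 56.7 CPM of fibroblast markers.

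Adcy6 and Adcy7 carried most cyclase RNA in growing myoblasts, and Adcy6 was the most abundant member in MPC. Levels are given as TPM, a length-corrected share of a library's transcripts, where genes are compared with each other. In bulk myoblasts Adcy6 stood at 31.2 ± 1.60 TPM and Adcy7 at 26.1 ± 4.27 (mean ± SD, n = 3 here and below), or 38.2% and 31.7% of the summed TPM of the 9 genes. In GFP+ myoblasts the levels were 48.8 and 43.4 TPM, shares of 43.4% and 38.6%. In GFP+ MPC the share of Adcy6 was 70.2% ± 2.59 and that of Adcy7 1.92% ± 0.294. Adcy2 came next there at 13.7 ± 4.39 TPM (16.1%) and Adcy3 at 7.86 ± 1.94 TPM. In bulk MPC the second most abundant member was Adcy9, at 7.14 ± 1.24 TPM and 21.7% ± 6.91 of the sum, after Adcy6 at 17.3 ± 6.85 TPM. Differentiated myoblasts spread the sum more evenly, with Adcy7, Adcy9 and Adcy8 at 7.70 ± 1.52, 7.55 ± 0.724 and 7.06 ± 1.83 TPM beneath Adcy6 at 24.4 ± 2.71, and these 3 levels overlapped. The sum itself was 82.0 ± 6.47 TPM in bulk myoblasts, 112 ± 2.88 in GFP+ myoblasts, 58.0 ± 5.77 in differentiated myoblasts, 34.4 ± 7.58 in bulk MPC and 84.2 ± 9.87 in GFP+ MPC.

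**Figure D1:**
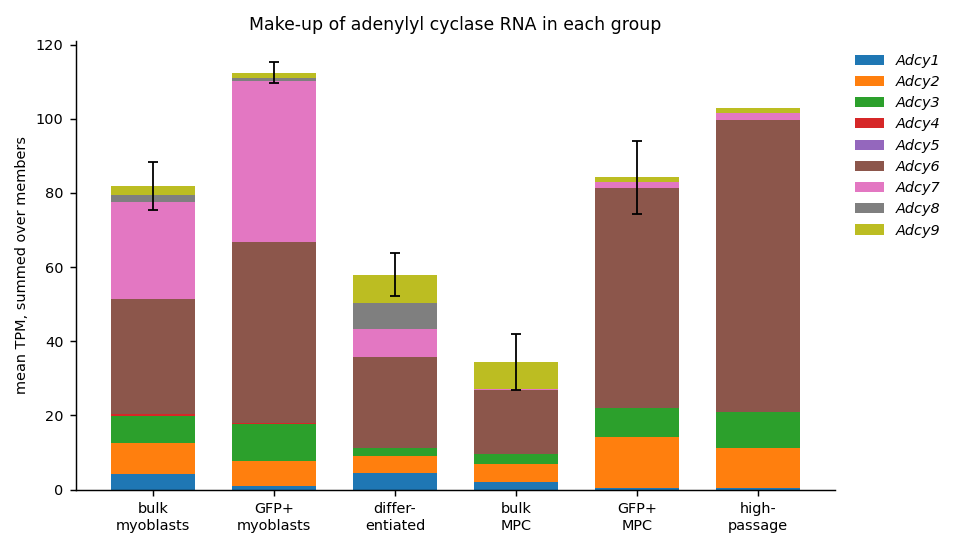
Stacked bars of the mean TPM of each member in each group (vertical axis, TPM), with the SD of the summed TPM over 3 libraries as a black bar and none for the single high-passage library. Adcy7 (pink) fills 31.7% and 38.6% of the bars of bulk and GFP+ myoblasts and 1.09% and 1.92% of those of bulk and GFP+ MPC.

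Part of the Adcy6 TPM came from Adcy6-206, an annotated noncoding transcript of 326 bases that received 26.9% of the gene's TPM in bulk myoblasts and 35.3% in GFP+ myoblasts but only 0.913% and 1.30% of its estimated counts. Over protein-coding transcripts alone, Adcy7 ranked above Adcy6 in growing myoblasts, at 25.5 against 17.9 TPM in bulk and 41.8 against 26.3 in GFP+ myoblasts. Adcy6 remained the most abundant member on that scale in GFP+ MPC (34.1 TPM, 58.5% of the sum), bulk MPC (10.1 TPM) and differentiated myoblasts (15.3 TPM). The summed TPM on that scale was 66.6 ± 7.09 in bulk myoblasts, 86.9 ± 2.98 in GFP+ myoblasts and 47.3 ± 3.59 in differentiated myoblasts. It was 26.4 ± 4.21 in bulk MPC and 58.3 ± 5.30 in GFP+ MPC. The mean of GFP+ MPC was thus below that of bulk myoblasts here, with overlapping ranges. Comparisons between groups below therefore rest on counts, scaled to CPM, in which Adcy6-206 weighs little. Of the 9 members, 8 passed the filter on low counts. Adcy4 passed only through its 15 to 17 counts per library in bulk myoblasts, so that a lower value elsewhere was partly fixed by the filter and it is left out of the counts of members called against that group. Adcy5 did not pass. The 7 comparisons share groups, and their values are not independent of each other.

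**Figure D2:**
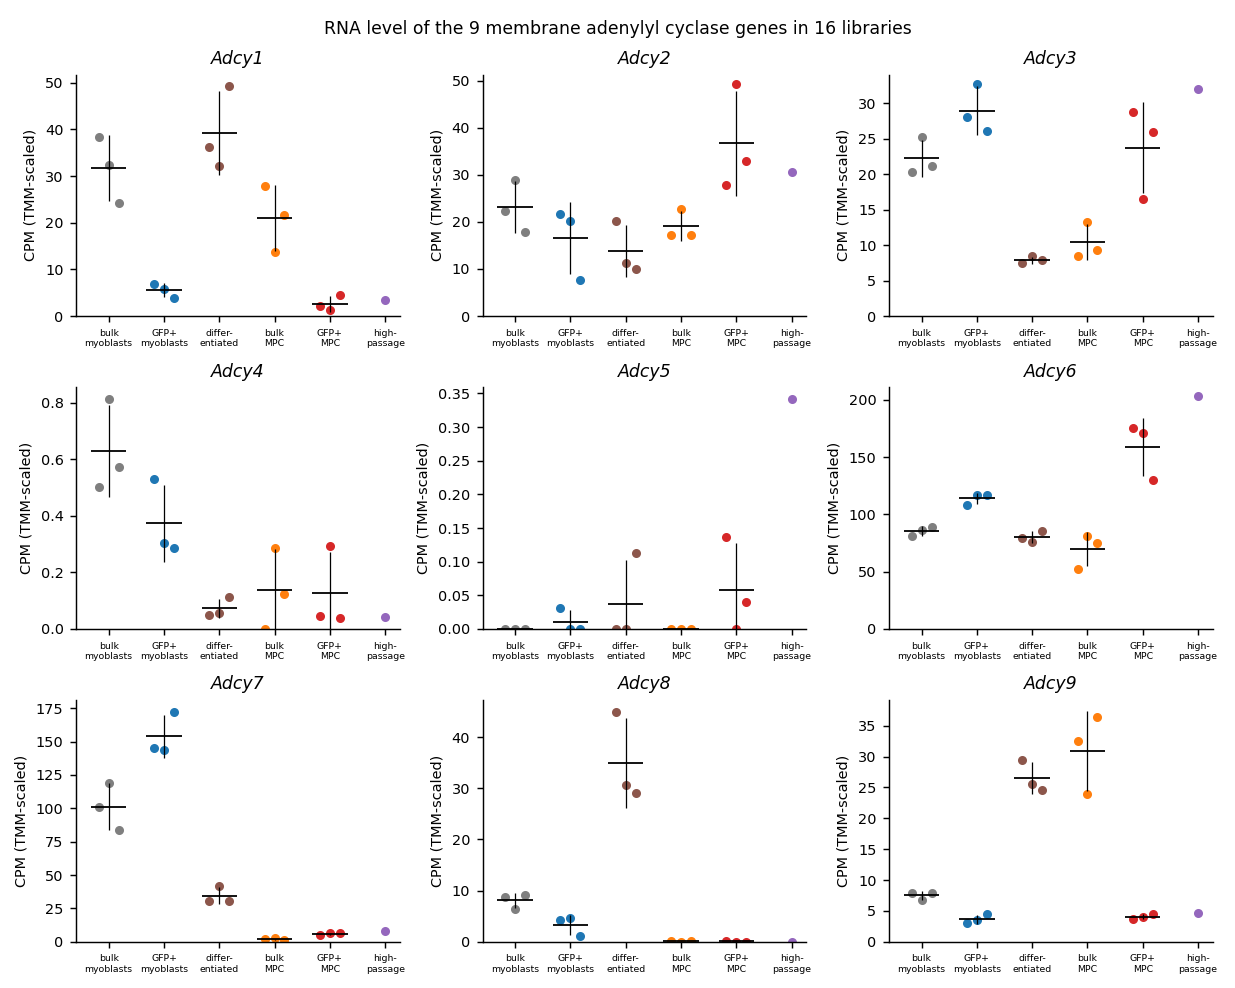
CPM of each member (vertical axes, from 0) in each library, as points by group, with the group mean as a horizontal line and the SD as a vertical line (n = 3, except the high-passage group, n = 1). Adcy7 and Adcy8 lie near 0 in the MPC groups, Adcy9 is high in differentiated myoblasts and bulk MPC, and Adcy6 is highest in GFP+ MPC and the high-passage library.

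The first comparison set GFP+ MPC against GFP+ myoblasts, the sorted Pax7 reporter cells of each culture, and 5 of the 8 tested members passed, beside 48.6% of the 15533 genes tested by the quasi-likelihood test of edgeR (adjusted p under 0.05 over all genes). Adcy7, Adcy8 and Adcy1 were lower and Adcy2 and Adcy6 higher. The background share was 22.7% of genes lower and 26% higher, and the median log2 fold change was 0.09 over all genes.

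The beta-gamma-responsive group moved in opposite directions. Adcy7 stood at 145, 144 and 172 CPM in GFP+ myoblast replicates 1 to 3 and at 5.16, 6.49 and 6.70 CPM in GFP+ MPC. Every MPC library was thus far below every myoblast library, a fall of 4.65 ± 0.20 on the log2 scale (SE), or 25.1-fold, with an edgeR adjusted p of 6.82e-09. Adcy2 went the other way, from 21.6, 20.3 and 7.75 CPM to 27.9, 49.2 and 32.9, with no overlap but a wide spread in each group (1.14 ± 0.36, adjusted p = 0.0191). Adcy4 had 31 counts in all in GFP+ myoblasts and 9 in GFP+ MPC, and did not pass (-1.55 ± 0.75, adjusted p = 0.104), although without GFP+ MPC replicate 2 it did (-3.02, adjusted p = 0.0171).

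Among the calcium-stimulated members, Adcy8 nearly disappeared. It stood at 4.21, 4.70 and 1.09 CPM in GFP+ myoblasts, and only 5 counts were assigned to it over the 3 GFP+ MPC libraries, 0.136, 0.0421 and 0.0394 CPM. The difference was -5.47 ± 0.67 (44.5-fold, adjusted p = 2.54e-05), and -6.20 without GFP+ MPC replicate 1. Adcy1 was low in both sorted groups, at 6.80, 5.80 and 3.90 CPM in myoblasts and 2.08, 1.26 and 4.45 in MPC, ranges that overlapped (-1.08 ± 0.40, adjusted p = 0.0388). Adcy3 showed no difference past the threshold, at 26.1 to 32.8 CPM in GFP+ myoblasts and 16.5 to 28.8 in GFP+ MPC (-0.29 ± 0.20, adjusted p = 0.255).

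Adcy6, the Gi-inhibited member, stood at 108, 116 and 117 CPM in GFP+ myoblasts and at 175, 171 and 130 CPM in GFP+ MPC, so that each MPC library lay above each myoblast library (0.48 ± 0.15, adjusted p = 0.0152). Its relative Adcy5 had 1 count in all GFP+ myoblast libraries and 4 in GFP+ MPC. Adcy9 was low in both groups, at 3.66 ± 0.732 and 4.10 ± 0.436 CPM, and missed the threshold (0.17 ± 0.19, adjusted p = 0.478).

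The calls of Adcy7 and Adcy8 passed under each alternative run, whereas those of Adcy1, Adcy2 and Adcy6 were lost when only these 6 libraries were fitted (edgeR adjusted p of 0.102, 0.0721 and 0.0552). Adcy1 was also lost over protein-coding transcripts (0.104) and without replicate 1 or 2 of either group (adjusted p = 0.0843 to 0.139) and was at -1.73 without GFP+ MPC replicate 3, Adcy2 without GFP+ myoblast replicate 3 or GFP+ MPC replicate 2 (0.0515 and 0.0854), and Adcy6 without GFP+ myoblast replicate 1, GFP+ MPC replicate 1 or GFP+ MPC replicate 2 (0.0573, 0.0594 and 0.0532) and with length-scaled counts (0.107).

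**Figure D3:**
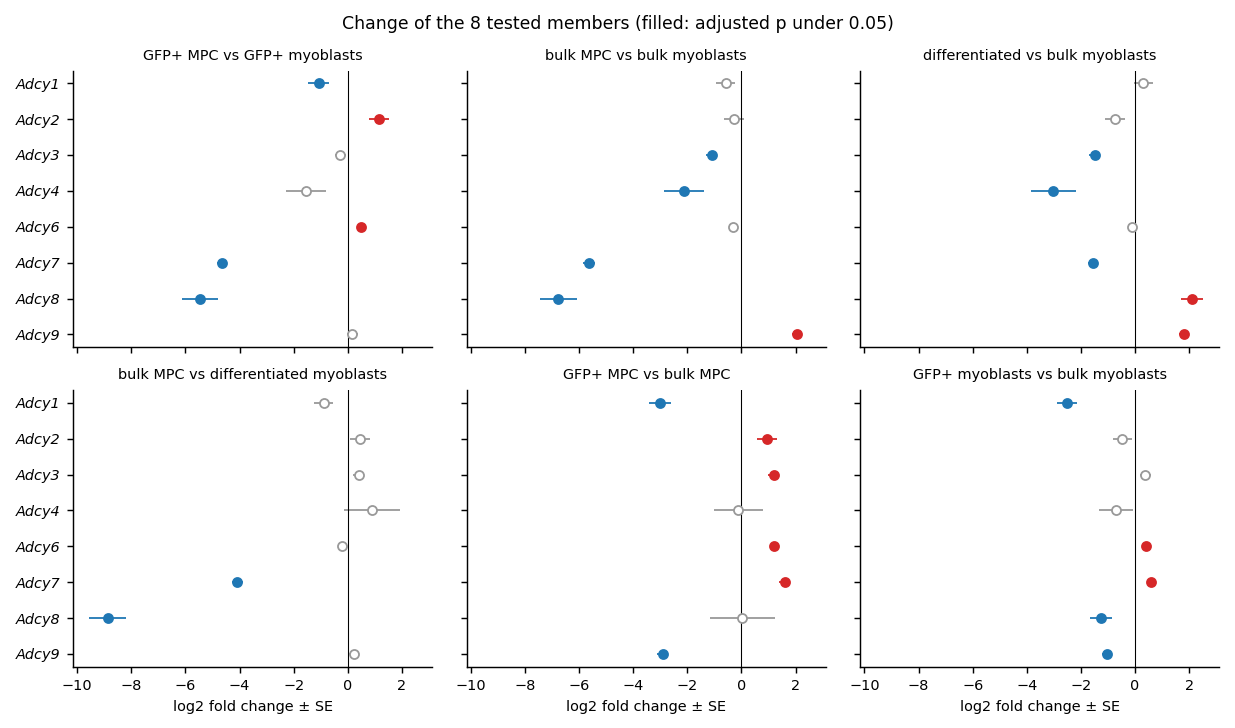
Log2 fold changes of the 8 tested members with SE as horizontal bars, 1 panel per comparison (n = 3 per group); red points were higher and blue points lower past an edgeR adjusted p of 0.05, and open points did not pass. Adcy7 and Adcy8 lie far to the left in the 3 panels that set MPC against another culture, at -4.09 to -8.88. Adcy4 is also drawn in the panels against bulk myoblasts. Its filled points there are not counted as calls, because the filter on low counts partly fixed their direction.

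The annotated start sites of Adcy7 and Adcy9 are shown because Adcy7 was low in every MPC library and Adcy9 rose in unsorted MPC. RefSeq windows (GRCm38.p6) run from 250 bases before to 50 bases after a start, on the gene's strand, and 7 of the 9 members have 1 or more (10 windows). The 3 Adcy7 windows lie at or near the starts of different transcripts, Adcy7-202 at chr8:88282742-88283041, Adcy7-204 at chr8:88288816-88289115 and Adcy7-201 at chr8:88293954-88294253, all on the + strand. The annotated start of Adcy7-204 lies 81 bases after the RefSeq start of its window. That window ends 50 bases after the RefSeq start, so the sequence labelled Adcy7-204 does not contain the transcript's own start. The Adcy9 window, at chr16:4420449-4420748 on the - strand, holds the start of Adcy9-203, which took 5.83% of Adcy9 TPM in bulk myoblasts and 8.82% in bulk MPC, while Adcy9-201 and Adcy9-202, which were not matched to this window, took the rest. Capitals mark a match to TGACG, the first 5 bases of the cAMP response element, on either strand (CGTCA is its reverse complement).
Adcy7, start of Adcy7-202: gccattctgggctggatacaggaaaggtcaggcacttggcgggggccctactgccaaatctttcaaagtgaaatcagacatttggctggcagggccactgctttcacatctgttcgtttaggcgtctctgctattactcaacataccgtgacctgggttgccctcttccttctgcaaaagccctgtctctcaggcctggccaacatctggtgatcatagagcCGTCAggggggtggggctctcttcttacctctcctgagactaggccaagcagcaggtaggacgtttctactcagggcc
Adcy7, start of Adcy7-204: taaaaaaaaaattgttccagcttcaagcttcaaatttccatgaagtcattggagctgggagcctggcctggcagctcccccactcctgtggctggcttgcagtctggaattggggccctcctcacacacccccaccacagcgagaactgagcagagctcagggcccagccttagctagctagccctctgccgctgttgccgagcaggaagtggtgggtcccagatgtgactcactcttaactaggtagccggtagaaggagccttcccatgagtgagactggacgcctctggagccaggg
Adcy7, start of Adcy7-201: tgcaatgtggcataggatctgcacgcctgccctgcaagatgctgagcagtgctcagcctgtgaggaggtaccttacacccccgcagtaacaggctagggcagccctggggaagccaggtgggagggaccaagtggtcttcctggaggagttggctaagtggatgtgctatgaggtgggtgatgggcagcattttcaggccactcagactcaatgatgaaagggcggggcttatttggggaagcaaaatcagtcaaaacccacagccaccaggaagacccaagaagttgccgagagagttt
Adcy9, start of Adcy9-203: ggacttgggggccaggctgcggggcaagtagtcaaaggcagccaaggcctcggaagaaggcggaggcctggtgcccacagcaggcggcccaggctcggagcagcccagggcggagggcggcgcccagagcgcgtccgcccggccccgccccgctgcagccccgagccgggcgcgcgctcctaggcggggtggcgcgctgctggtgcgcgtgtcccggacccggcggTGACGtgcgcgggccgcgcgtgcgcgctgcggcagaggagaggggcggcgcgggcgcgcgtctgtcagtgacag
The full element TGACGTCA was in none of the 10 member windows and in 1.79% of all 32851 windows of the table. TGACG, which every full element also contains, was in 2 of the 10, the first Adcy7 window and that of Adcy9, and in 20.8% of all windows. The E-box CAGCTG, searched because muscle regulatory factors bind it, was in none of the 10 and in 16.3% of all.

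RNA assigned to the transcripts named with the 3 Adcy7 windows was lower in MPC. Adcy7-202 carried most of it, at 23.1 ± 7.41 TPM in GFP+ myoblasts and 1.06 ± 0.120 in GFP+ MPC. Adcy7-201 went from 4.13 ± 1.47 to 0.487 ± 0.425 TPM and Adcy7-204 from 9.02 ± 7.82 to 0.001. Adcy7-203, a protein-coding transcript matched to none of these windows, went from 5.57 ± 0.148 to 0 TPM. In bulk cultures Adcy7-202 went from 15.2 ± 5.12 to 0.161 ± 0.0509 TPM. These transcripts share most of their sequence and the reads were single, so the split between them is an estimate with wide spread, as in the 0.251% to 31.6% of Adcy7 TPM that Adcy7-204 took in the 3 GFP+ myoblast libraries. No test was run on transcripts.

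**Figure D4:**
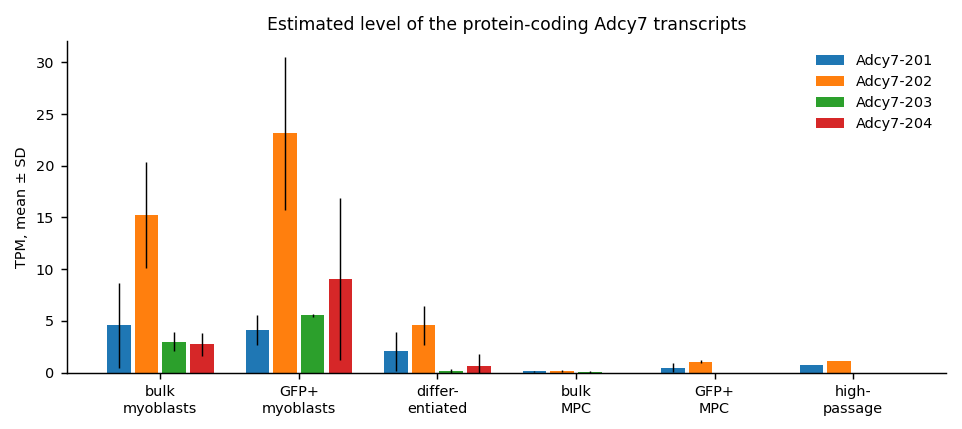
TPM of the 4 protein-coding Adcy7 transcripts (vertical axis; bars are means and lines SD, n = 3, no line for the single high-passage library) in each group. All bars are under 2 TPM in bulk MPC, GFP+ MPC and the high-passage library, where Adcy7-202 is at 0.161, 1.06 and 1.14 TPM.

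Unsorted MPC cultures against unsorted growing myoblasts again had lower Adcy7 and Adcy8, and here Adcy9 rose. Adcy3 was also lower, which made 4 of the 7 tested members other than Adcy4, 1 higher and 3 lower, beside 58.5% of all genes (28.4% higher, 30.1% lower), a share near that of all genes. Adcy7 stood at 101, 119 and 83.9 CPM in bulk myoblasts and at 1.96, 2.49 and 1.55 CPM in bulk MPC, a fall of 5.64 ± 0.22 (edgeR adjusted p = 3.42e-09). Adcy8 stood at 8.80, 6.41 and 9.12 CPM in myoblasts, and the 3 bulk MPC libraries held 4 counts of it in all, with replicate 2 at 0 (-6.77 ± 0.68, adjusted p = 3.73e-06, and -6.18 without that replicate). Neither gene's groups came near each other. Adcy9, the weakly forskolin-responsive member, stood at 7.97, 6.70 and 7.87 CPM in bulk myoblasts and at 32.5, 23.9 and 36.4 in bulk MPC (2.04 ± 0.18, adjusted p = 1.63e-06), the only member that was higher.

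Adcy3, which olfactory neurons and primary cilia are known for, stood at 20.4, 25.2 and 21.1 CPM in bulk myoblasts and at 8.50, 13.3 and 9.38 in bulk MPC, again without overlap (-1.10 ± 0.21, adjusted p = 0.000566). Exons of Adcy3 overlap those of Cenpo on the opposite strand, a gene at 2.31 to 18.3 CPM here, and the sources used here do not give the strand setting of the counting. Adcy4 had 48 counts in bulk myoblasts and 8 in bulk MPC, and its difference is given without a test, since the myoblast counts carried it through the filter. Adcy1 (31.7 ± 7.06 and 21.1 ± 7.12 CPM), Adcy2 (at most 28.9 and at most 22.7) and Adcy6 (85.7 ± 4.19 and 69.5 ± 14.9) did not pass, with edgeR adjusted p of 0.178, 0.535 and 0.0913. Without bulk MPC replicate 2, the library that stood apart, Adcy6 was lower past the threshold (-0.43, adjusted p = 0.0302), and Adcy7, Adcy9 and Adcy3 were at -5.83, 2.19 and -1.32. In these bulk samples, fewer cells that express a gene and less RNA per cell cannot be told apart.

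After 3 days of differentiation, Adcy8 and Adcy9 were higher than in bulk myoblasts, and Adcy3 and Adcy7 were lower. These 4 of the 7 tested members other than Adcy4 compare with 54.2% of all genes (25.6% higher, 28.6% lower), a share near that of all genes. Adcy3, Adcy7 and Adcy9 were called in the same directions as in bulk MPC against the same bulk myoblast libraries, and Adcy8 in the opposite direction. Adcy8 stood at 44.9, 30.6 and 29.1 CPM in differentiated myoblasts, each library above the highest bulk myoblast library at 9.12 (2.10 ± 0.41, edgeR adjusted p = 0.000809). Adcy9 stood at 29.4, 25.5 and 24.5 CPM (1.82 ± 0.18, adjusted p = 4.36e-06). Adcy7 fell less than in MPC, to 30.9, 41.9 and 30.6 CPM (-1.56 ± 0.17, adjusted p = 9.61e-06), and Adcy3 fell to 7.43, 8.42 and 7.86 CPM (-1.49 ± 0.21, adjusted p = 7.06e-05). Adcy4 had 4 counts over the 3 libraries, against 48 in bulk myoblasts, which carried it through the filter, so its difference is given without a test. Adcy6 (80.0 ± 5.09 CPM), Adcy1 (39.2 ± 8.99) and Adcy2 (13.8 ± 5.58) did not pass, and Adcy2 did so without differentiated myoblast replicate 1 (-1.12, adjusted p = 0.0335).

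Bulk MPC and differentiated myoblasts had overlapping sums of differentiation marker RNA, and in their direct comparison 2 of 8 tested members passed, both lower in bulk MPC, beside 43.8% of all genes (19.4% lower). These were Adcy8 (-8.88 ± 0.67, edgeR adjusted p = 1.06e-06) and Adcy7 (-4.09 ± 0.21, adjusted p = 5.32e-08). Without bulk MPC replicate 2 they were at -8.28 and -4.27. Adcy8 thus ran from 29.1 to 44.9 CPM in one culture and from 0 to 0.124 in the other, while the summed differentiation markers overlapped. Single markers differed, with Myh8 at 7499.5 CPM in differentiated myoblasts and 18302 in bulk MPC, and Mymk at 1669 and 720. Of the 7 markers, 1 passed as higher and 1 as lower in bulk MPC. Adcy9 stood at 26.5 ± 2.55 and 30.9 ± 6.44 CPM and did not differ past the threshold (0.22 ± 0.17, adjusted p = 0.322). Adcy3 (0.39 ± 0.21, adjusted p = 0.149), Adcy6 (-0.20 ± 0.15, 0.279), Adcy2 (0.46 ± 0.37, 0.332) and Adcy4 (0.89 ± 1.03, 0.515) did not pass either. Adcy1 missed the threshold (-0.90 ± 0.36, adjusted p = 0.0606) and passed with only these groups in the fit (0.0212), by DESeq2 (0.0439) and without bulk MPC replicate 1 (0.0416).

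Within the MPC culture, reporter-sorted cells differed from the whole culture in 6 of 8 tested members, beside 66.6% of all genes (32.9% higher, 33.7% lower). Adcy1 and Adcy9 were lower and Adcy2, Adcy3, Adcy6 and Adcy7 higher in GFP+ MPC. Adcy9 stood at 3.72, 4.00 and 4.57 CPM in sorted cells, far below the 23.9 to 36.4 CPM of the whole culture (-2.91 ± 0.19, edgeR adjusted p = 3.94e-08). Adcy1, a cyclase best known from neurons, stood at 27.8, 13.7 and 21.7 CPM in bulk MPC and at 1.26 to 4.45 CPM in GFP+ MPC (-3.01 ± 0.41, adjusted p = 2.05e-05, and -3.65 without GFP+ MPC replicate 3). Adcy6 ran from 52.6 to 81.0 CPM in the whole culture and was higher in sorted cells (1.19 ± 0.15, adjusted p = 9.33e-06), as were Adcy3 (1.19 ± 0.21, 0.000194) and Adcy7 (1.60 ± 0.21, 1.47e-05), although Adcy7 stayed at or below 6.70 CPM. Without bulk MPC replicate 2, Adcy9, Adcy1, Adcy6, Adcy3 and Adcy7 were at -3.07, -3.24, 1.32, 1.41 and 1.78. Adcy2 was higher by 0.94 ± 0.36 (adjusted p = 0.034), a call lost without bulk MPC replicate 1 (0.0946), bulk MPC replicate 3 (0.0922) or GFP+ MPC replicate 2 (0.138). Adcy8 held 4 and 5 counts per group, and a difference was not detectable at this depth (0.03 ± 1.21, adjusted p = 0.984), as for Adcy4 with 8 and 9 counts (-0.11, adjusted p = 0.92).

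Sorted myoblasts differed from bulk myoblasts in 5 of 8 tested members, beside 30% of all genes (12.7% higher, 17.4% lower). Adcy1 was lower in each of the 3 sorted libraries than in any bulk library (-2.52 ± 0.39, edgeR adjusted p = 0.000382), as was Adcy9, at 2.96, 3.60 and 4.42 CPM (-1.04 ± 0.19, adjusted p = 0.00115). Adcy8 was lower by a smaller margin (-1.27 ± 0.41, adjusted p = 0.0342), and Adcy7 (0.60 ± 0.17, 0.0158) and Adcy6 (0.41 ± 0.15, 0.0485) were higher, with no overlap between groups for any of the 3. These 3 calls were weak. Adcy6 lost its call with a replicate block (edgeR adjusted p = 0.0603), with no filter (0.0624), with a minimum count of 50 (0.0685) and without any 1 of the 6 libraries (0.0662 to 0.13), Adcy7 without replicate 3 of either group (0.0828 without bulk myoblast replicate 3, 0.0619 without GFP+ myoblast replicate 3), and Adcy8 without bulk myoblast replicate 1 (0.0924), bulk myoblast replicate 3 (0.106) or GFP+ myoblast replicate 3 (0.0594), with only these groups fitted (0.0816) and over protein-coding transcripts (0.0508). Without bulk myoblast replicate 3, 2719 genes passed in place of 4667. Adcy2 (-0.47 ± 0.36, edgeR adjusted p = 0.347) and Adcy3 (0.38 ± 0.20, 0.168) did not pass. Adcy4 had 31 counts in GFP+ myoblasts and 48 in bulk myoblasts, which carried it through the filter, so its difference is given without a test.

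Adcy1 and Adcy9 were lower in sorted cells than in whole cultures, as were the summed differentiation markers, at 292 to 1430 CPM in sorted cells and 13545 CPM or more in whole cultures. Between the sorted groups the means of Adcy1 and the markers went in opposite directions, with Adcy1 at 5.50 CPM in GFP+ myoblasts and 2.60 in GFP+ MPC beside marker sums of 292 to 451 and 663 to 1430 CPM, and bulk MPC had higher marker sums than bulk myoblasts beside Adcy1 means of 21.1 and 31.7 CPM. The Adcy1 ranges overlapped in both pairs. Its bulk difference did not pass (edgeR adjusted p = 0.178), and its sorted difference passed in 8 of 14 alternative runs. The part of differentiating cells in these differences was not tested. Summed neuronal markers, listed because Adcy1 and Adcy8 are known from neurons, were 75.2 to 106 CPM in GFP+ myoblasts and 37.0 to 82.4 in bulk myoblasts, and 10.2 to 22.8 CPM in GFP+ MPC and 18.2 to 39.2 in bulk MPC, with Elavl4 at 0 in each of these groups and Rbfox3 at 0 in all of them but bulk myoblasts, and most of the sum came from Tubb3 and Stmn2. Summed markers of pericytes and smooth muscle were 834 to 1228 CPM in GFP+ MPC and 221 to 305 in GFP+ myoblasts, none of the 6 at 0. Most of that sum was Notch3, at 935 and 185 CPM, and of the 6 markers 5 were higher and 1 was lower in GFP+ MPC, with Rgs5 at 13.4 and 80.0 CPM. Summed markers of Schwann cells and glia were 128 to 256 CPM in GFP+ MPC and 11.5 to 14.0 in GFP+ myoblasts, with Erbb3 making up most of it (75.6 to 158 and 9.58 to 11.8 CPM) and Sox10 and S100b at 0 in both groups. The part of these lists in the member differences was not tested.

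**Figure D5:**
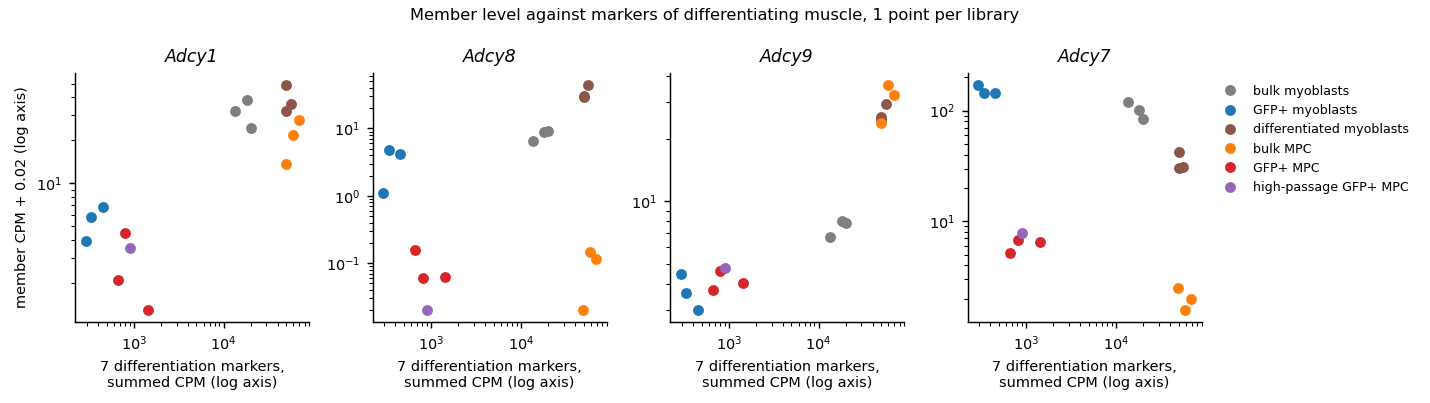
CPM of 4 members (vertical log axes, with 0.02 added so that 0 can be drawn) against the summed CPM of 7 differentiation markers (horizontal log axis), 1 point per library, coloured by group. Adcy9 is high where the markers are high, whereas Adcy8 in bulk MPC is at 0 to 0.124 CPM beside marker sums as high as those of differentiated myoblasts.

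The gap between sorted cells and whole culture differed between MPC and myoblasts for 5 of 8 tested members, in an edgeR test of the difference of both differences. This stands beside 37.1% of all genes (20.3% higher, 16.8% lower). Kit differed along with sorting in both cultures and passage in myoblasts only, so the test cannot assign these differences to sorting. Adcy9 was lower in sorted cells of both cultures, and by more in MPC than in myoblasts (-1.87 ± 0.26 on the log2 scale, adjusted p = 0.000171). The sort differences of Adcy6 and Adcy7 were more positive in MPC by 0.78 ± 0.21 (adjusted p = 0.00973) and 0.99 ± 0.27 (0.0106). Those of Adcy2 (1.42 ± 0.51, 0.0441) and Adcy3 (0.81 ± 0.29, 0.0422) passed narrowly. The Adcy2 call was lost without bulk myoblast replicate 1 or 2, GFP+ myoblast replicate 3, bulk MPC replicate 1 or 3, or GFP+ MPC replicate 2 or 3 (0.055 to 0.104), and the Adcy3 call was lost without any library but bulk MPC replicate 2, GFP+ myoblast replicate 2 and GFP+ MPC replicate 2 (0.0576 to 0.105), with a replicate block (0.0524), no filter (0.0562), length-scaled counts (0.0849) or only these groups fitted (0.0689). With DESeq2 size factors both were lost (0.0544 for Adcy2, 0.0551 for Adcy3). Adcy1 was lower in sorted cells of each culture, and these gaps did not differ past the threshold (-0.49 ± 0.54, adjusted p = 0.503).

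By CPM, the group order was clear at the top for some members. Adcy6 in GFP+ MPC (130 to 175 CPM) did not overlap GFP+ myoblasts (108 to 117), which did not overlap bulk myoblasts (81.0 to 89.2), whereas bulk myoblasts, differentiated myoblasts and bulk MPC each overlapped the next. For Adcy3 the 3 upper groups, GFP+ myoblasts, GFP+ MPC and bulk myoblasts, overlapped each other in turn, and bulk MPC (8.50 to 13.3) lay below them and above differentiated myoblasts (7.43 to 8.42). For Adcy2 each group overlapped its neighbour. For Adcy9, bulk MPC and differentiated myoblasts overlapped and stood clear of the rest. Adcy5, known from heart and striatum, had 0 counts in all bulk myoblast and bulk MPC libraries, which allows up to 0.0381 and 0.0514 CPM over the group (3 counts, counting error only). The soluble cyclase gene Adcy10, which forskolin does not act on and which is no member, was at or below 0.203 TPM in each library.

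The high-passage GFP+ MPC library, which enters no test, held Adcy6 at 203 CPM, Adcy2 at 30.6, Adcy3 at 32.1, Adcy7 at 7.78, Adcy9 at 4.74 and Adcy1 at 3.50. It had 0 counts of Adcy8, which allows up to 0.128 CPM. Adcy1 and Adcy2 lay within the range of the 3 GFP+ MPC libraries and Adcy6, Adcy3, Adcy7 and Adcy9 above it. Its Adcy6 share of the summed TPM was 76.4%.

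Other genes of the cAMP pathway also differed, mostly in both directions. Their counts stand beside 26% of all genes higher and 22.7% lower in GFP+ MPC against GFP+ myoblasts, and 28.4% higher and 30.1% lower in bulk MPC against bulk myoblasts. Of 18 tested G protein genes, 4 were higher and 6 lower in GFP+ MPC than in GFP+ myoblasts (median -0.06, against 0.09 for all genes), and 5 were higher and 12 lower in bulk MPC than in bulk myoblasts (median -0.61 against -0.01). Gnas, which encodes the stimulatory alpha subunit, was higher in both (0.77 ± 0.10, edgeR adjusted p = 6.07e-05, and 0.78 ± 0.10, 3.85e-05). Gnai2, an inhibitory alpha subunit, was lower in both (-0.92 ± 0.08 and -0.87 ± 0.08), and so was Gnai1 (-1.25 ± 0.25 and -1.89 ± 0.26). Gnb4, a beta subunit, was lower in both (-3.01 ± 0.35 and -4.32 ± 0.39), as was Gng2, a gamma subunit, at -2.98 ± 0.41 in bulk MPC. Gnao1, another inhibitory-class alpha subunit, was higher in GFP+ MPC (1.63 ± 0.27).

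Of 20 tested genes of Gs-coupled receptors, 8 were higher and 8 lower in GFP+ MPC (median 0.23), and 7 were higher and 6 lower in bulk MPC (median 0.32), beside 48.6% and 58.5% of all genes called in either direction. The prostaglandin E2 receptor gene Ptger4 ran from 30.0 to 50.4 CPM in GFP+ myoblasts and from 0.227 to 0.985 in GFP+ MPC (-6.02 ± 0.45, edgeR adjusted p = 3.47e-07). Vipr2, which encodes a receptor for vasoactive intestinal peptide, was higher (3.63 ± 0.62). The calcitonin receptor gene Calcr, a marker of quiescent satellite cells, had no counts in GFP+ or bulk myoblasts and was at 0.843 to 3.07 CPM in GFP+ MPC.

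Among 17 tested regulators of cyclases, 4 were higher and 9 lower in GFP+ MPC (median -0.53), while 8 were higher and 3 lower in bulk MPC (median 0.40). Rgs2, which inhibits several cyclases, was higher in both (4.10 ± 0.35, edgeR adjusted p = 1.26e-06, and 2.13 ± 0.33, 0.000119), and Prkcd, a protein kinase C gene, was lower in GFP+ MPC (-2.39 ± 0.25). Downstream, 2 of 9 genes of PKA subunits and inhibitors were higher and 5 lower in GFP+ MPC, with a median of -0.61. Pkia, the PKA inhibitor alpha, was lower (-3.64 ± 0.40), as was the regulatory subunit gene Prkar1b (-1.80 ± 0.42), whereas the catalytic subunit gene Prkacb was higher by 0.41 ± 0.08. In bulk MPC, 3 of these 9 genes were higher and 1 lower, with a median of 0.07. Among them Prkar1a was higher there (1.21 ± 0.12) and Prkar2b lower (-2.41 ± 0.28). Of 8 CREB family genes 3 were higher and none lower in GFP+ MPC, a smaller share than the 48.6% of all genes called there, with Creb1 at 0.73 ± 0.15, while in bulk MPC 1 was higher and 4, with Creb1 at -0.47 ± 0.15, were lower, a share near the 58.5% of all genes. Of 8 other cAMP effectors, 4 were higher and 1 lower in each of these comparisons, with Rapgef3, which encodes Epac1, at 1.34 ± 0.46 and 2.35 ± 0.45. Of 14 tested phosphodiesterase genes, 7 were higher and 1 lower in GFP+ MPC (median 1.55) and 4 and 1 in bulk MPC (median 0.57). Pde7b was higher in both (4.04 ± 0.44 and 1.38 ± 0.39), and Pde3a, which had 1 library above 0 in GFP+ myoblasts at 0.0312 CPM, was at 16.4 to 36.4 CPM in GFP+ MPC. These lists were chosen with earlier results of these data known, and their counts are descriptions.

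The genes whose log2 CPM followed the main members most closely over the 15 replicated libraries were Actn1 (r = 0.99), Zfhx3 (0.98) and Ttll7 (0.98) for Adcy7, Cbx6 (0.97), Lrrc45 (0.96) and Mpnd (0.96) for Adcy6, and Ppp1r3d (0.99), Wdr45 (0.97) and Map9 (0.97) for Adcy8. These Pearson correlations are descriptions over libraries that share their groups and cultures.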

How the data were processed

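RNA-seq of poly(A) RNA (stranded kit, single reads) was quantified by the authors with kallisto 0.46.1 after trimming with fastp 0.20.0, with GRCm39 named as the build, per the submitters' processing notes. The strand setting is not given in the sources used here. Per the file headers, each of the 16 deposited tables holds, per transcript, a length, an effective length, an estimated count and TPM; the estimated counts are not normalized, and the deposited TPM values are relative to effective length and library.

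Transcripts were summed per gene with the names of GENCODE M21: of 121798 transcripts, 120739 matched, which left 35613 genes. Estimated counts were rounded for fitting. All 15 replicated libraries entered 1 quasi-likelihood fit (edgeR 4.0.16, TMM scaling, filterByExpr with a minimum count of 10), with 15533 genes tested, Benjamini-Hochberg adjustment over them and a threshold of 0.05. CPM values use the TMM factors. The fit was tested on simulated data. Counts of any 2 replicates of a group differed by more than sampling noise, with chi-square over its degrees of freedom at 9.76 to 57.6. The labels call them biological replicates and mention parental lines without tying a library to an animal, so p-values measure the spread between these libraries.

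In all 5 groups the labels' library names begin with the same number for the same replicate number, which may mark a parental line, although no label says so. Correlations of the deviations of same-numbered libraries were over 0.1 in all 3 pairs only for bulk MPC with bulk myoblasts (0.134, 0.131 and 0.163) and ran from -0.166 to 0.209 over all pairs of groups. The fit treats the libraries as unpaired, and the value with a replicate block is given where it changes a call. The members and gene lists were chosen with earlier results of these data known. All members are named; other pathway genes are named if always allowed as background (such as Gnas and Rgs2) or if among the 3 largest changes of their list past the threshold, changed alike in all 3 same-numbered pairs and at 1 TPM or more. Like-pattern genes are the 3 protein-coding genes of highest Pearson r with each of 3 members. Pam, listed among cyclase regulators, was left out because that mouse symbol belongs to an amidating enzyme. Alternatives were DESeq2 1.42.0 (its size factors in edgeR, and its Wald test), no filter and a minimum count of 50, a replicate block, length-scaled counts, only the compared groups in the fit, leaving out each library, plain CPM, TPM and, chosen after seeing the data, protein-coding transcripts only. A count of 0 was taken to allow 3 counts, which covers counting error only. Promoter windows come from RefSeq (GRCm38.p6), and no coordinates were converted between builds.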

Additional observations from a re-analysis of the deposited data

Results flagged for a closer look

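For 5 members the gap between sorted cells and whole culture differed between MPC and myoblasts in edgeR's test (3 libraries per group). Passage also differed between sorted and bulk myoblasts but not between the MPC groups, so sorting, kit and passage cannot be told apart. On the log2 scale the gap in MPC minus that in myoblasts was 1.42 for Adcy2 (adjusted p = 0.0441), 0.81 for Adcy3 (0.0422), 0.78 for Adcy6 (0.00973), 0.99 for Adcy7 (0.0106) and -1.87 for Adcy9 (0.000171). The group means behind them were 3.66 and 7.51 CPM (sorted and bulk myoblasts) against 4.10 and 30.9 (sorted and bulk MPC) for Adcy9, and 154 and 101 against 6.12 and 2.00 CPM for Adcy7. Differentiation markers were lower in sorted cells of both cultures, at 13545 CPM or more in whole cultures and at most 1430 CPM in sorted cells. Their part in these differences was not tested.

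The unreplicated high-passage GFP+ MPC library, used in no comparison, held 3 members above every growing myoblast library. Adcy6 was at 203 CPM there, against at most 117 in growing myoblasts, Adcy2 at 30.6 CPM against at most 28.9, and Adcy5 at 0.342 CPM, from 8 counts, against at most 0.0312. This library differs from the others in sex, age and passage history together, which cannot be told apart. The share of all genes above every growing myoblast library was not computed, so the count of 3 members is a description only.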

How the results depend on the processing

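The falls of Adcy7 and Adcy8 in the 3 comparisons of MPC with another culture kept their direction and passed under each alternative that gave a value, as did Adcy9 in bulk MPC and differentiated against bulk myoblasts, both sort comparisons and their difference. Of the alternative values of member fold changes, 739 kept direction and side of the threshold, 58 no longer passed, 6 newly passed and 11 reversed, all 11 of members that did not pass. In GFP+ against bulk MPC, Adcy8 was at -0.0098 with a minimum count of 50, at -0.29 with length-scaled counts and at -0.68 to 0.53 leaving out a library, and Adcy4 at -1.58 to 1.14 leaving out a library. Leaving out a library also moved Adcy4 between -0.36 and 1.50 in bulk MPC against differentiated myoblasts and between -0.87 and 1.84 in the sort difference. Over protein-coding transcripts, Adcy6 was at 0.024 in differentiated against bulk myoblasts. Of the 5 members that passed in GFP+ MPC against GFP+ myoblasts, 2 passed with only those groups fitted, and leaving out a library gave 3 to 5. In GFP+ against bulk myoblasts leaving out a library gave 2 to 4 in place of 5. In the sort difference, DESeq2 size factors gave 3 and leaving out a library 3 to 5 in place of 5. Beyond the smaller number of libraries in some of these fits, the cause was not tested. With a replicate block, Adcy6 in GFP+ against bulk myoblasts (edgeR adjusted p = 0.0603) and Adcy3 in the sort difference (0.0524) no longer passed, and the block changed no other call of a member. Of 60 tests of which of the 3 libraries of another group best matched a given library, 31 picked the same number. Of the ranks of groups within a member, 112 stayed and 23 moved with plain CPM (6), TPM (8) or protein-coding TPM (9), and with TPM, Adcy9 was highest in differentiated myoblasts (7.55, against 7.14 in bulk MPC). Adcy4 had no value with a minimum count of 50, over protein-coding transcripts or, in the 3 comparisons without bulk myoblasts, with only the compared groups fitted, and Adcy8 none with only both MPC groups fitted. Depth limits Adcy4, Adcy5 and, in MPC, Adcy8, which rest on 48 counts or fewer per group.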
